A study of Canis lupus familiaris with 12 samples.

Results

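The genes described here are 179 gene rows, of 14736 that could be followed through all groups, whose read level in canine myoblasts was higher with the DUXC-ALT isoform than with luciferase, without a large rise with human DUX4 or canine DUXC. They were chosen on their measured values. A member had a mean of at least 0.5 reads per 1000000 gene reads (CPM, counts per 1000000) with DUXC-ALT. Its DUXC-ALT mean, with 0.1 CPM added to both groups, was at least 1.8 times the luciferase mean. Of the 205 rows that met both conditions, 26 were left out because DUX4 or DUXC stood at 8 times luciferase or more.

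DUX4 is a transcription factor with a pair of DNA-binding homeodomains. It is normally active in the early embryo, and its inappropriate expression in skeletal muscle is linked to facioscapulohumeral muscular dystrophy. DUXC is a related factor of the dog, and DUXC-ALT one of its isoforms.

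The 12 libraries held polyadenylated RNA of an immortalized line of canine myoblasts, which are muscle precursor cells, with 3 libraries in each of 4 groups. All cells carried the lentiviral vector pCW57.1, which drives its insert when doxycycline is present. The insert was luciferase, human DUX4, DUXC or DUXC-ALT. According to the treatment protocol, all samples received doxycycline at 1 ug/ml over 24 h, but the treatment tag of the luciferase samples reads no doxycycline, and that of the 9 others reads doxycycline. Every comparison with luciferase may therefore also compare doxycycline with its absence, and these cannot be told apart. Comparisons among DUX4, DUXC and DUXC-ALT do not carry this difference. Separate cultures are not stated for the replicates, so the p-values reflect the spread between libraries, possibly a technical one. Gene counts per library ranged from 15556477 to 20590325 in the tables used.

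The gene tables as used here carry no names. Members are cited by their row number in the DUXC-ALT gene table, and no symbol, function, position or sequence is given for any of them. Muscle markers, pathway lists and the rows of the inserted genes were likewise not analysed here.

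The differences that defined the members were mostly modest. The ratio of DUXC-ALT to luciferase had a median of 2.08 and ran from 1.81 to 7.43, against a median of 1.04 over all 14736 rows. It lay under 2 for 73 members, from 2 to under 3 for 84, from 3 to under 4 for 14, and at 4 or more for 8. These values chose the members and are a description. Many members had few reads. The luciferase mean lay under 1 CPM for 35.8% of members and 17.6% of all rows, and at 100 CPM or more for 4.47% of members and 12.2% of all rows. The median luciferase mean was 2.94 CPM for members and 16.5 CPM for all rows. The fewest luciferase reads behind a member were 9 over the 3 libraries, and 45 members had under 30.

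**Figure D1:**
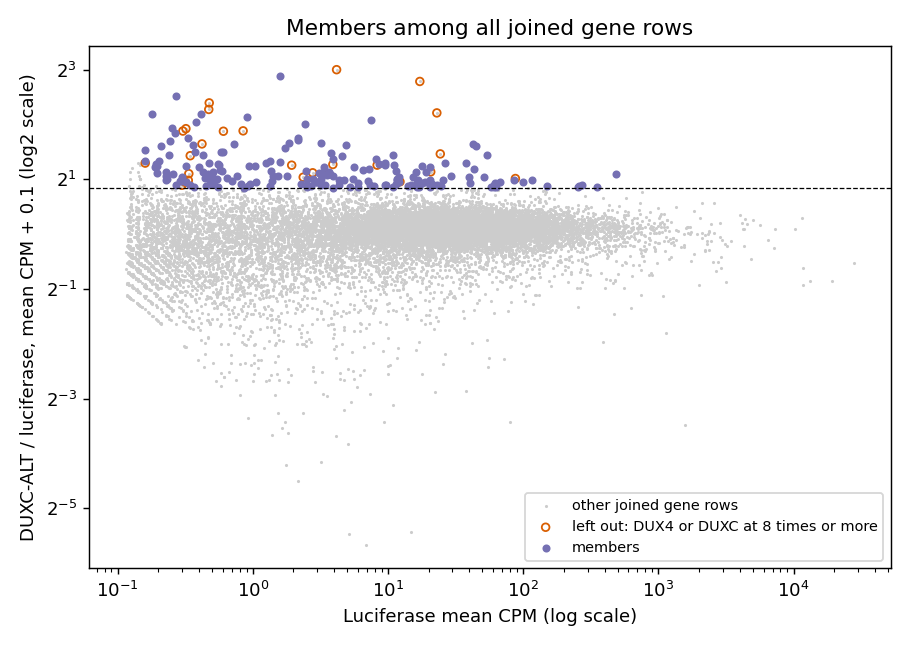
Luciferase mean CPM (horizontal, log scale) against the ratio of DUXC-ALT to luciferase (vertical, log2 scale, 0.1 CPM added to both means) for 14736 gene rows. Filled points are the 179 members, open circles are the 26 rows left out for DUX4 or DUXC, grey points are the other rows, and the dashed line is the limit of 1.8. The highest member ratio is 7.43.

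One luciferase library stood apart for these genes. Luciferase replicate 1 was the lowest of the 3 luciferase libraries for 104 members, or 58.1%, against 32.9% of all rows. It lay at least 20% under the mean of the other 2 for 26.8% of members and 7.93% of all rows. Its median log2 difference from that mean was -0.13 over members and 0.003 over all rows. Rows 10695, 740, 2744, 10716 and 4510 had their lowest luciferase value there. Rows 39, 1612, 5752, 5794 and 14750 had their highest luciferase value there. The rule used these values. Without that library the median ratio of the 179 members was 2.01, 28 of them fell under 1.8, and the rule gave 170 members, 150 of them among the 179. The part of this library in the other results was not tested beyond leaving it out.

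The member with the highest ratio, row 5752, stood at 1.93, 1.10 and 1.75 CPM in the luciferase libraries. With DUXC-ALT it stood at 13.4, 11.97 and 12.1 CPM, well above every other library. With DUXC it stood at 5.33, 5.89 and 4.68 CPM, and with DUX4 at 3.16, 2.94 and 2.64 CPM. The 4 groups did not overlap, and luciferase was the lowest. Across DUXC and DUX4, whose libraries did not enter its DUXC-ALT ratio, the log2 difference was 0.87 ± 0.16 (SE, with adjusted p = 2.7e-06 by edgeR), higher with DUXC.

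Among the 8 members with the highest ratios, DUXC-ALT was the highest group mean for 6. Row 14018 stood at 0.268, 0.348 and 0.194 CPM with luciferase and at 1.95, 1.79 and 2.35 CPM with DUXC-ALT. Its DUX4 values, 1.64, 2.29 and 1.61 CPM, overlapped those of DUXC-ALT, and its DUXC values were lower, at 0.592, 1.24 and 0.480 CPM. DUX4 and DUXC did not overlap there, with DUXC lower by a log2 difference of -1.24 ± 0.30 (SE, with adjusted p = 0.000199 by edgeR). Row 14750 stood at 1.07, 0.986 and 0.680 CPM with luciferase and at 4.10, 4.28 and 4.71 CPM with DUXC-ALT. Its DUXC values of 2.26, 2.54 and 2.64 CPM and its DUX4 values of 0.947, 1.64 and 1.7999 CPM lay below all 3 DUXC-ALT values. Row 5794 stood at 0.750, 0.348 and 0.146 CPM with luciferase, so its low group varied several-fold, and at 1.70, 2.54 and 2.52 CPM with DUXC-ALT. Row 12701 had the fewest luciferase reads of the 8, at 0.268, 0.174 and 0.0971 CPM, and stood at 0.950, 1.56 and 1.02 CPM with DUXC-ALT. Its DUX4 values of 0.821, 0.763 and 0.964 CPM overlapped those of DUXC-ALT. Its DUXC values of 0.592, 0.486 and 0.240 CPM lay below them. Row 6874 stood at 0.375, 0.522 and 0.243 CPM with luciferase and at 2.201, 1.5607 and 1.87 CPM with DUXC-ALT. One DUX4 library at 1.58 CPM and one DUXC library at 1.5614 CPM lay above its lowest DUXC-ALT library.

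In the remaining 2 of these 8, DUXC was the highest group. Row 6975 stood at 6.70, 7.71 and 8.06 CPM with luciferase and at 31.0, 36.3 and 28.4 CPM with DUXC-ALT. With DUX4 it stood at 32.4, 32.3 and 33.4 CPM and with DUXC at 38.7, 39.3 and 39.9 CPM, so all 3 factors lay near one level, 4 to 5 times luciferase. Row 4807 stood at 1.66, 2.73 and 2.96 CPM with luciferase, 10.3, 10.6 and 9.42 CPM with DUXC-ALT, and 19.1, 19.5 and 18.9 CPM with DUXC. DUX4 held it at 4.48, 6.21 and 4.89 CPM. Its groups did not overlap, in the order luciferase, DUX4, DUXC-ALT, DUXC. The log2 difference between DUXC and DUX4 was 1.88 ± 0.10 (SE, with adjusted p = 9.4e-25 by edgeR).

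**Figure D2:**
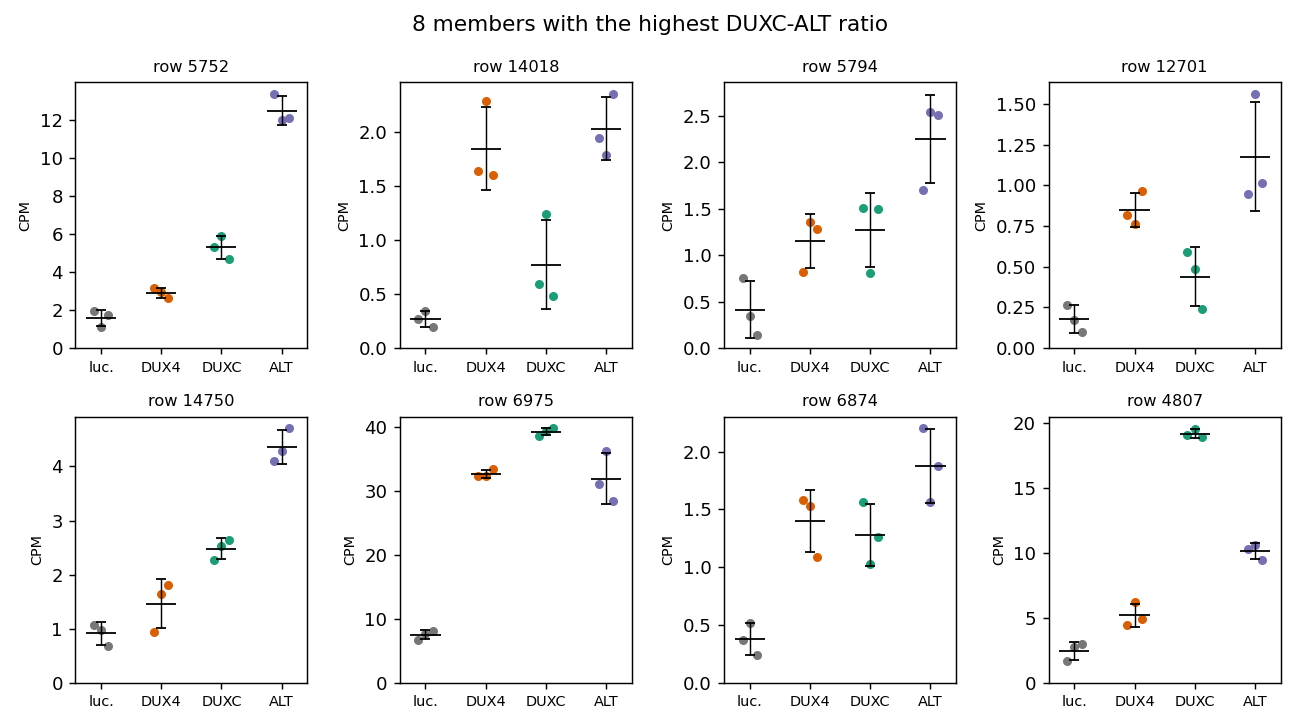
CPM in each library (points), with the group mean and SD (lines and bars, n = 3), for the 8 members with the highest ratio of DUXC-ALT to luciferase. Each panel is one gene row with its own vertical scale from 0, and luc. and ALT stand for luciferase and DUXC-ALT. Row 5752 has its DUXC-ALT libraries at 11.97 to 13.4 CPM above all others, whereas rows 6975 and 4807 are highest with DUXC.

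The 8 members with the highest DUXC-ALT CPM had much larger counts, and the order of their groups also varied. Unlike in the 8 members above, the DUX4 and DUXC means did not always exceed luciferase. Replicates mostly lay close together, with more spread among the luciferase libraries of some rows. CPM are not per length, so these are the rows with most reads and not the genes with most transcripts. Row 10695 stood at 441, 515.5 and 490.3 CPM with luciferase and at 1025, 1057 and 1006 CPM with DUXC-ALT. With DUXC it stood at 490.1, 515.3 and 510.3 CPM, within the luciferase range, and with DUX4 at 831, 824 and 849 CPM. DUXC was lower than DUX4 by -0.72 ± 0.03 on the log2 scale (SE, with adjusted p = 1.9e-34 by edgeR).

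Row 740 stood at 327, 360.5 and 362 CPM with luciferase and at 650.5, 627 and 636 CPM with DUXC-ALT. With DUX4 it stood at 359, 352 and 378 CPM and overlapped luciferase, whereas with DUXC it stood at 206, 188 and 191 CPM, below every other library. The gene was thus higher than luciferase with the isoform and lower with DUXC. Between DUXC and DUX4 its log2 difference was -0.89 ± 0.03 (SE, with adjusted p = 1.45e-33 by edgeR).

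Rows 2744, 10716 and 39 were highest with DUXC-ALT. Row 2744 stood at 236, 299.5 and 282 CPM with luciferase, 225, 229 and 236 CPM with DUX4, 268, 263 and 266 CPM with DUXC, and 522, 499.6 and 508 CPM with DUXC-ALT. Row 10716 stood at 229, 271 and 274 CPM with luciferase, 246.5, 249.5 and 251 CPM with DUX4, 346.5, 353 and 343 CPM with DUXC, and 460.5, 486 and 483 CPM with DUXC-ALT. Row 39 stood at 119, 116 and 115 CPM with luciferase and at 235, 228 and 233 CPM with DUXC-ALT, and its DUX4 and DUXC values lay between 126 and 146 CPM. In each of these 3 rows the DUXC-ALT libraries lay above all 9 others.

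The last 3 of the 8 had DUXC-ALT in the middle of the order. Row 4855 stood at 254, 252 and 255 CPM with luciferase, 353, 372 and 365 CPM with DUX4, then 466.5, 453 and 456 CPM with DUXC-ALT, and 1181, 1163 and 1179.98 CPM with DUXC. Row 1612 stood at 102, 98.9 and 99.8 CPM with luciferase, 124, 133.5 and 131 CPM with DUX4, then 197, 192 and 196 CPM with DUXC-ALT, and 263, 263.5 and 262 CPM with DUXC. Row 7924 stood at 145, 152 and 150.2 CPM with luciferase, 268, 275.5 and 275 CPM with DUXC-ALT, 384, 395 and 380.1 CPM with DUXC, and 480.3, 484.5 and 476 CPM with DUX4. The 4 groups did not overlap in any of these 3 rows. Row 4855 had the highest DUXC value of all members.

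The groups were also ordered over all 179 members. DUXC-ALT had the highest mean for 97, DUXC for 47 and DUX4 for 35. Luciferase had the lowest mean for 132, DUX4 for 24 and DUXC for 23. The same orders were not counted over all rows. The 3 DUXC-ALT libraries lay above all 9 others for 65 members, and the background for that pattern was 17% of all rows. DUXC-ALT did not overlap luciferase for 172 members, against 34.6% of all rows, and overlapped it for 7. The rule used the DUXC-ALT and luciferase values, so nothing is read from these counts. The median coefficient of variation between replicates was 8.06% with DUXC-ALT, 9.40% with DUXC, 9.89% with DUX4 and 13.9% with luciferase. Some members spread far more, and the highest values were 49.4% with DUXC-ALT, 119% with DUXC, 109% with DUX4 and 118% with luciferase. The members took 0.726% ± 0.00379 of all gene reads with DUXC-ALT, 0.599% ± 0.00341 with DUXC, 0.558% ± 0.00551 with DUX4 and 0.359% ± 0.0227 with luciferase (SD, n = 3). In these shares the rows with most reads weigh most. Row 4855 alone had a mean of 1175 CPM with DUXC and far less with DUX4. That difference was larger than the difference between the DUXC and DUX4 shares, so the order of these shares rested on row 4855. Without it the DUX4 share would be the higher, though the exact shares were not computed.

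**Figure D3:**
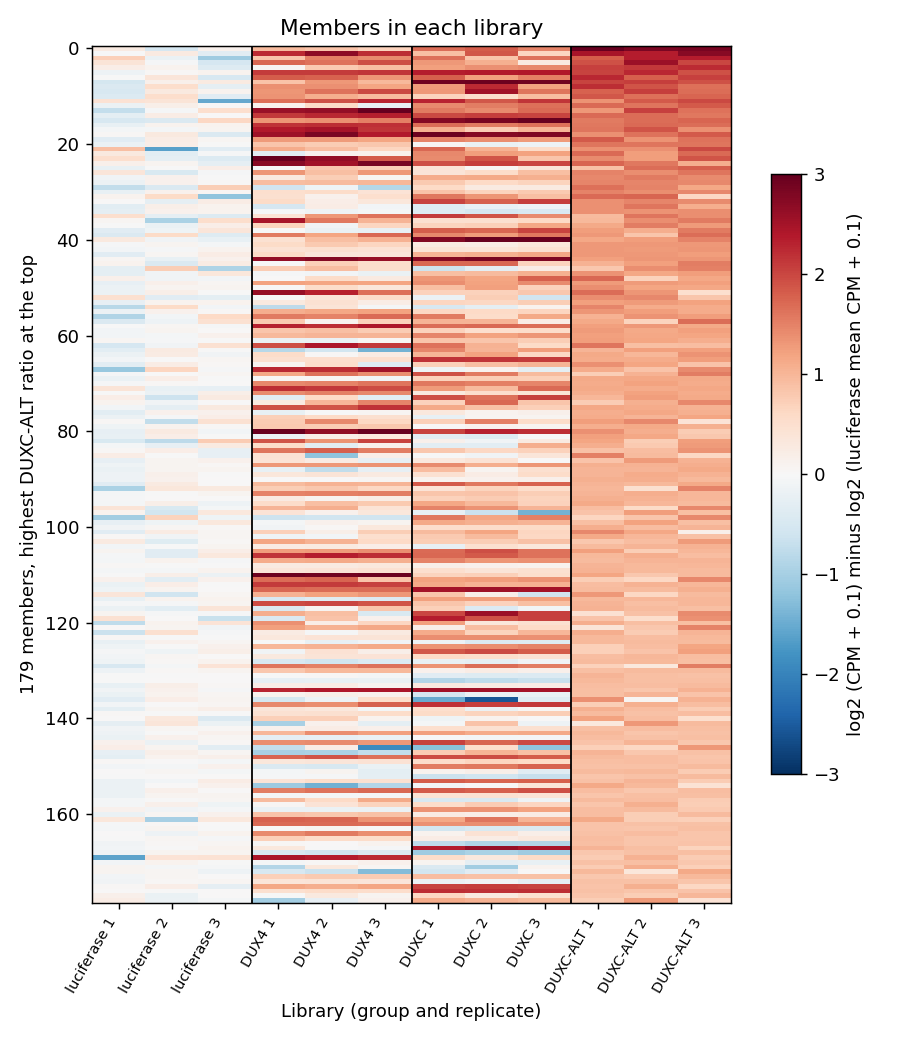
Level of each of the 179 members (rows, highest DUXC-ALT ratio at the top) in each of the 12 libraries (columns, by group and replicate), as log2 of CPM + 0.1 minus log2 of the luciferase mean + 0.1. Red is above the luciferase mean and blue below it. The DUXC-ALT columns are red nearly throughout because of how members were chosen, and the DUX4 and DUXC columns hold both colours.

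The choice was also checked on libraries left out of its ratio and CPM limit, a check added after the data were examined. The filter of 7 or more luciferase reads was kept over all 3 luciferase libraries, so the left-out one still counted there. Members were chosen again without 1 luciferase and 1 DUXC-ALT library, in all 9 combinations, and their ratio was read in the pair left out. The 177 to 221 rows chosen had a median log2 ratio of 0.86 to 1.09 in the left-out pair, against 1.01 to 1.07 in the libraries that chose them and 0.05 to 0.07 over all rows. The left-out ratio reached 1.8 for 50.2% to 67.8% of them, against 2.59% to 3.56% of all rows, and was above 1 for 89.8% to 95.5%. The share at 1.8 was 35.6% to 46.3% where the choosing DUXC-ALT mean lay under 2 CPM and 56.3% to 87.5% above it. The high ends of the median and of these shares at 2 CPM or more came from the 3 combinations that left out luciferase replicate 1. The other 6 gave medians of 0.86 to 0.91, 50.2% to 55.9% of rows at 1.8, and 56.3% to 63.4% at 2 CPM or more. Of the original 179 members, 140 to 166 were chosen again. Each left-out pair still differed in the doxycycline tag. Its libraries may be technical repeats of those that chose the rows, as separate cultures are not stated.

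The limit of 1.8 cut through a continuous range of ratios. The 3 members just inside it were rows 8214, 2922 and 4855, each with a ratio of 1.81. The 3 rows just outside were 10103, 14546 and 1412, with ratios of 1.798, 1.796 and 1.79. Row 1412 stood at 11.2 ± 0.344 CPM with luciferase, 20.2 ± 1.11 CPM with DUXC-ALT and 68.0 ± 2.55 CPM with DUXC (SD, n = 3). Row 2922 had 3.92 ± 0.486 CPM with luciferase and 7.15 ± 0.652 CPM with DUXC-ALT (SD, n = 3).

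DUXC and DUX4 were compared directly over all rows, a contrast that uses neither the DUXC-ALT nor the luciferase libraries. The ceiling of the rule did use the DUX4 and DUXC libraries, and it left out more rows for DUX4 (19) than for DUXC (12), so the balance between the 2 factors is partly set by the rule. Of the 164 members tested, 68 were higher with DUXC, 50 were higher with DUX4 and 46 did not pass the threshold of 0.05 on the edgeR adjusted p. The background was 33.1% of 13324 tested rows higher with DUXC and 33% lower, and the members stood at 41.5% and 30.5%. The median log2 difference was 0.13 over members and -0.005 over all tested rows. With the rows left out by the ceiling put back, an alternative added after the data were examined, 75 of 190 tested rows were higher with DUXC and 69 higher with DUX4, or 39.5% and 36.3%. The difference passed the threshold and exceeded 2-fold in 27 members higher with DUXC, or 16.5%, against 6.39% of all tested rows. It did so in 18 members higher with DUX4, or 10.98%, against 5.53% of all tested rows. In 70 members all DUXC libraries lay above all DUX4 libraries, against 31.2% of all rows, and in 54 the reverse held, against 33%. The other 15 members had too few reads to be tested.

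**Figure D4:**
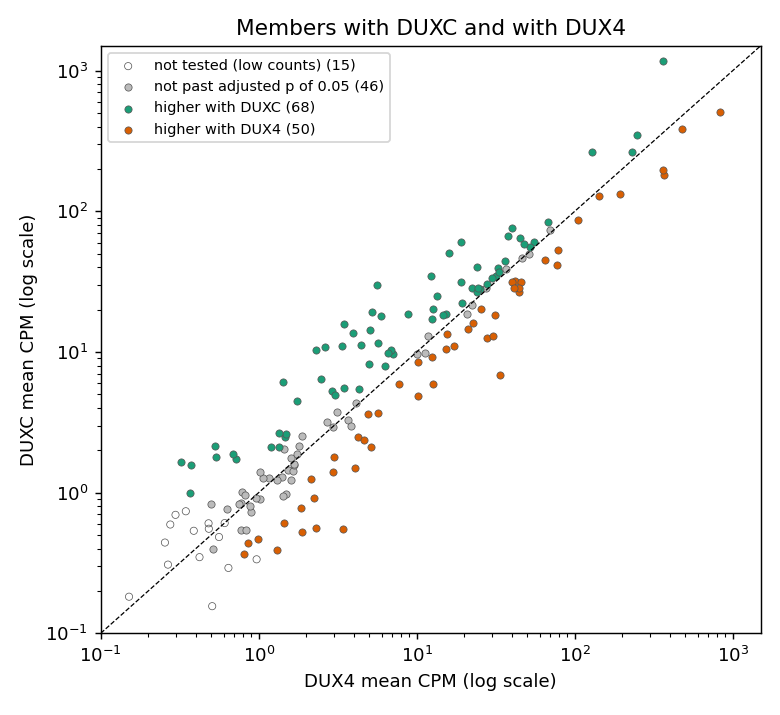
Mean CPM with DUX4 (horizontal, log scale) against mean CPM with DUXC (vertical, log scale) for the 179 members. Colours mark the edgeR call at an adjusted p of 0.05, with 68 members higher with DUXC, 50 higher with DUX4, 46 not past the threshold and 15 not tested, and the dashed line is equality. Members lie on both sides of the line.

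Of the 5 members with the largest differences in favour of DUXC, row 10624 led. It stood at 6.57, 5.23 and 5.14 CPM with DUX4 and 27.1, 32.6 and 29.4 CPM with DUXC, a log2 difference of 2.40 ± 0.09 (SE, with adjusted p = 3.75e-32 by edgeR). Its luciferase values of 4.93, 5.22 and 5.63 CPM overlapped those of DUX4, and its DUXC-ALT values of 10.8, 9.88 and 8.35 CPM lay between. Row 241 had the same order of the factors. It stood at 1.77, 2.45 and 2.70 CPM with DUX4, 9.15, 11.1 and 10.97 CPM with DUXC and 2.95, 3.12 and 3.69 CPM with DUXC-ALT. Its luciferase values of 1.55, 1.16 and 1.07 CPM lay below all of its DUX4 values. Its log2 difference between DUXC and DUX4 was 2.17 ± 0.15 (SE, with adjusted p = 2.47e-20 by edgeR).

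Row 11405 was high with both canine proteins and low with DUX4. It stood at 5.25, 7.89 and 6.41 CPM with luciferase, 3.60, 4.41 and 2.38 CPM with DUX4, 18.1, 13.3 and 15.6 CPM with DUXC and 13.2, 15.5 and 15.5 CPM with DUXC-ALT. DUXC exceeded DUX4 by 2.16 ± 0.14 on the log2 scale (SE, with adjusted p = 2.86e-16 by edgeR), and the DUXC and DUXC-ALT libraries overlapped. Row 13475 stood at 1.58, 1.36 and 1.35 CPM with DUX4, 5.81, 5.56 and 6.83 CPM with DUXC and 3.95, 3.53 and 4.87 CPM with DUXC-ALT. Its DUX4 libraries overlapped luciferase, at 1.23, 1.45 and 2.09 CPM, and the log2 difference between DUXC and DUX4 was 2.08 ± 0.18 (SE, with adjusted p = 1.01e-15 by edgeR). Row 14792 was the least abundant of the 5, at 0.316, 0.327 and 0.321 CPM with DUX4 and 1.83, 1.35 and 1.74 CPM with DUXC, a log2 difference of 2.33 ± 0.36 (SE, with adjusted p = 5.39e-08 by edgeR). Its luciferase values of 0.214, 0.928 and 0.486 CPM overlapped DUXC-ALT at 0.900, 1.04 and 1.66 CPM.

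In favour of DUX4, row 8217 had the largest difference. It stood at 3.22, 3.11 and 3.86 CPM with DUX4 and 0.538, 0.648 and 0.480 CPM with DUXC, a log2 difference of -2.58 ± 0.26 (SE, with adjusted p = 2.18e-13 by edgeR). DUXC-ALT held it at 1.40, 1.16 and 1.77 CPM, between both, and luciferase at 0.214, 0.986 and 0.583 CPM. Row 6689 was the clearest of this kind at higher counts, at 34.4, 32.9 and 34.2 CPM with DUX4 and 7.05, 7.29 and 6.29 CPM with DUXC. Its log2 difference was -2.29 ± 0.08 (SE, with adjusted p = 2.24e-34 by edgeR). With luciferase it stood at 4.34, 4.93 and 3.84 CPM and with DUXC-ALT at 10.1, 7.69 and 8.51 CPM, so the groups did not overlap.

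The other 3 were rows of few reads. Row 11632 stood at 2.46, 2.29 and 2.12 CPM with DUX4 and 0.592, 0.486 and 0.599 CPM with DUXC, and its luciferase values ran from 0.0536 to 0.534 CPM. Row 9737 stood at 2.02, 1.36 and 2.25 CPM with DUX4 and 0.538, 0.432 and 0.599 CPM with DUXC. Row 14602 stood at 1.70, 1.36 and 0.836 CPM with DUX4 and 0.377, 0.378 and 0.420 CPM with DUXC. Their log2 differences between DUXC and DUX4 were -2.02 ± 0.28, -1.81 ± 0.31 and -1.72 ± 0.37 (SE), with edgeR adjusted p of 7.12e-09, 8.69e-07 and 4.01e-05.

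DUX4 and DUXC were each set against luciferase. These comparisons share the luciferase libraries with the rule, which also set a ceiling on them, so the counts are a description. With DUX4, 102 of 161 tested members were raised and 11 lowered by edgeR's adjusted p, 63.4% and 6.83%, against 38.4% and 35.8% of all tested rows. With DUXC, 118 of 155 were raised and 12 lowered, 76.1% and 7.74%, against 38.9% and 37.4%. Fitted median log2 fold changes over tested members were 0.68 (DUX4), 0.91 (DUXC) and 1.03 (DUXC-ALT), against 0.005, 0.0007 and 0.005 over all tested rows. Without luciferase replicate 1, 98 of 163 tested members were raised and 13 lowered with DUX4. In the same setting, 118 of 162 were raised and 15 lowered with DUXC. Shares over all rows were not computed for that setting. Rises that passed the threshold and exceeded 2-fold numbered 73 for DUXC, or 47.1% against 16.1% of all tested rows, and 64 for DUX4, or 39.8% against 15.5%. For DUXC-ALT they numbered 85, or 53.1% against 0.842%, a share set by the rule. Falls of that size numbered 0 for DUXC-ALT, 1 for DUXC and 1 for DUX4, against 3.64%, 4.97% and 4.51% of all tested rows. DUX4 and DUXC were called in opposite directions, and differed from each other, in 7 of the 149 members tested in all 3 comparisons, or 4.70%, against 6.42% of all rows so tested. With DUXC-ALT itself, 159 of 160 tested members passed upward and 0 downward, against 25.6% and 25.7% of all tested rows, as the choice of members makes nearly certain. Row 11632 was the exception (edgeR adjusted p = 0.0625).

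The medians were also read against a luciferase library that had entered the choice only through the filter on luciferase reads. Over the same 9 combinations, the median log2 ratio to the left-out luciferase library was 0.39 to 0.59 with DUX4 and 0.58 to 0.91 with DUXC, against 0.001 to 0.005 and 0.02 to 0.03 over all rows. The upper ends again came from leaving out luciferase replicate 1. With replicate 2 or 3 left out, the highest were 0.49 with DUX4 and 0.71 with DUXC. The doxycycline tag still differs in these values, and the ceiling on both factors still applies.

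**Figure D5:**
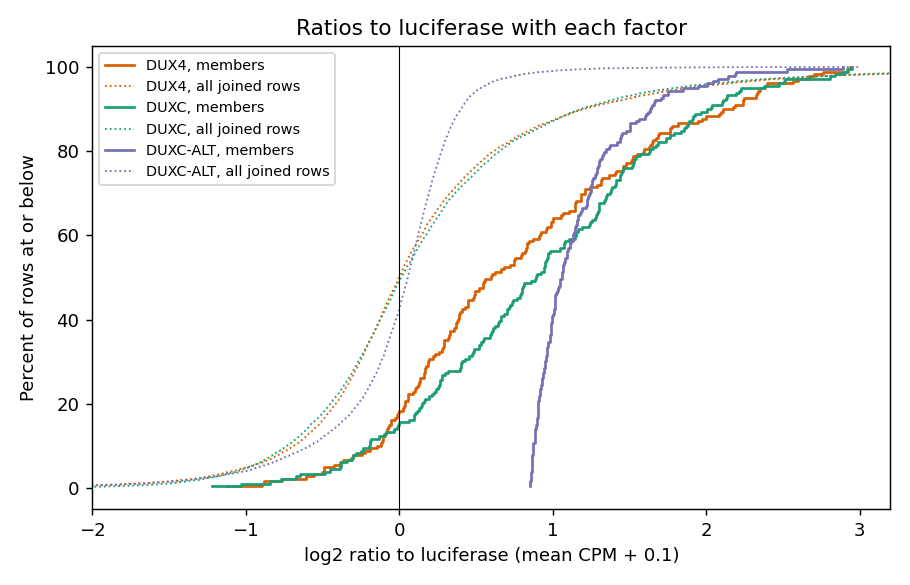
Percent of gene rows (vertical) at or below each log2 ratio to luciferase (horizontal, 0.1 CPM added to both means), for DUX4, DUXC and DUXC-ALT. Solid lines are the 179 members and dotted lines all 14736 rows. The members' DUXC-ALT line starts at the limit of 1.8 by choice, and their median ratios are 2.08 for DUXC-ALT, 1.85 for DUXC and 1.52 for DUX4.

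At the high end of the other factors, row 7877 stood at 9.0004, 7.36 and 9.47 CPM with luciferase and 20.3, 21.7 and 21.6 CPM with DUXC-ALT. It stood at 54.1, 58.4 and 53.6 CPM with DUX4 and at 59.0, 63.0 and 60.8 CPM with DUXC. Row 13442 stood at 0.361 ± 0.111 CPM with luciferase, 1.33 ± 0.226 with DUXC-ALT, 2.69 ± 0.432 with DUX4 and 3.196 ± 0.222 with DUXC (SD, n = 3). Row 5433 stood at 0.464 ± 0.105 CPM with luciferase, 1.10 ± 0.247 with DUXC-ALT, 2.48 ± 0.249 with DUXC and 4.22 ± 0.643 with DUX4 (SD, n = 3). In all 3 rows the isoform gave an intermediate level, with the DUXC-ALT libraries above luciferase and below both other factors.

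At the low end, row 4510 was higher with DUXC-ALT and lower with both other factors. It stood at 51.9, 61.0 and 61.0 CPM with luciferase, 41.5, 38.5 and 43.8 CPM with DUX4, 27.5, 29.8 and 27.8 CPM with DUXC, and 102, 106 and 109 CPM with DUXC-ALT. None of the groups overlapped. DUXC was lower than DUX4 by -0.53 ± 0.06 on the log2 scale (SE, with adjusted p = 3.81e-12 by edgeR). Row 8988 stood at 4.63 ± 1.30 CPM with DUXC-ALT, 2.51 ± 0.239 with luciferase, 2.04 ± 0.433 with DUXC and 1.44 ± 0.420 with DUX4 (SD, n = 3), and DUX4 and DUXC did not differ past the threshold (edgeR adjusted p = 0.073). Row 5058 lay under 1.5 CPM in every library, at 1.03 ± 0.472 CPM with DUXC-ALT, 0.496 ± 0.108 with luciferase, 0.508 ± 0.236 with DUX4 and 0.156 ± 0.185 with DUXC (SD, n = 3). One DUXC-ALT library of that row overlapped luciferase.

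DUXC-ALT was also set directly against each of the other factors, with no difference in the doxycycline tag. The DUXC-ALT libraries chose the members, so the counts describe them and support nothing. Of 173 tested members, 82 were higher and 43 lower with DUXC-ALT than with DUXC by edgeR's adjusted p, 47.4% and 24.9%, against 38.6% and 38.2% of all tested rows. Of 172, 93 were higher and 41 lower with DUXC-ALT than with DUX4, 54.1% and 23.8%, against 37.8% and 37.9%. Row 4510 had the largest excess over DUXC, at 1.87 ± 0.05 on the log2 scale, and row 740 exceeded DUXC by 1.68 ± 0.03 (SE). Row 5752 exceeded DUXC by 1.21 ± 0.11 and DUX4 by 2.02 ± 0.13 (SE). In the other direction, row 241 lay below DUXC by a log2 difference of -1.70 ± 0.13, and row 6689 below DUX4 by -2.02 ± 0.07 (SE).

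The 26 rows left out by the ceiling met the same DUXC-ALT conditions. DUX4 stood at 8 times luciferase or more for 19 of them, DUXC for 12 and both for 5. Row 3321 had the highest DUXC-ALT ratio of any followed row, 8.01, at 4.17 ± 0.651 CPM with luciferase, 34.1 ± 4.57 with DUXC-ALT, 29.3 ± 1.92 with DUXC and 67.3 ± 4.65 with DUX4 (SD, n = 3). Row 10313 had a ratio of 6.90, at 17.2 ± 2.47 CPM with luciferase, 119 ± 3.62 with DUXC-ALT, 66.7 ± 0.772 with DUX4 and 298 ± 10.96 with DUXC (SD, n = 3). The 3 highest ratios over all followed rows thus include 2 rows outside the membership, named here after their values were seen. A further 7 of 892 rows of the DUXC-ALT table met both conditions but had fewer than 7 luciferase reads, too few to be followed through the other tables.

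By position in the table, another member lay within 5 rows of 22 members, or 12.3%, and a member lay that near to 10.7% of all rows. What the row order stands for is not given in the sources used here. The non-member rows next to members had a median log2 ratio of DUXC-ALT to luciferase of 0.08, against 0.06 over all rows. No member had the same 12 counts as another row.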

How the data were processed

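The authors deposited raw gene counts in 3 tables, each with the luciferase libraries and 1 factor. These counts are whole numbers per row with no normalization. Per the submitters' processing notes, canFam3, CASAVA, TopHat2 2.1.0, Bowtie2 2.2.6 and DESeq2 were used, with no role or order stated. The sources used here give neither the counting tool nor its handling of strand and multi-mapped reads, so reads of near-identical or overlapping genes may be split or shared between rows. The deposited normalized tables and repeat tables were not used.

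The 3 tables were joined by position over rows holding 7 or more luciferase reads, whose luciferase counts match row for row. CPM were computed on each library's column total. The test was that of edgeR 4.0.16 under R 4.3.3 (TMM, filterByExpr, robust quasi-likelihood fit of the 6 libraries compared, Benjamini-Hochberg over all tested rows, threshold 0.05) and, as an alternative, DESeq2 1.42.0. Each SE of a log2 difference was the absolute difference divided by the square root of the quasi-likelihood F statistic. It was not an SE reported by the fit. The edgeR procedure was tested on simulated data. Named rows were the 8 highest by ratio, the 8 highest by DUXC-ALT CPM, the 5 largest DUXC and DUX4 differences in each direction among rows past the threshold without overlap and with at least 1 CPM, the 3 on each side of the limit, and the 3 lowest and highest by the mean ratio of DUX4 and DUXC. Other alternatives were RLE scaling, no filter, a replicate block, each library left out and other membership limits. Members, rules and lists were chosen with earlier results of these data known. Replicate numbers come from the titles.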

Additional observations from a re-analysis of the deposited data

Results flagged for a closer look

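Against luciferase, 7 members were raised with one of DUX4 and DUXC and lowered with the other, and the difference between the 2 factors passed edgeR's direct test in each. They were 4.70% of the 149 members tested in all 3 comparisons, against 6.42% of all rows so tested. Passing the direct test was part of how these rows were chosen. Fold changes below are on the log2 scale. For 6 of them DUXC was the higher. The difference of DUXC minus DUX4 was 0.93 ± 0.05 for row 5461, 2.16 ± 0.14 for row 11405, 1.67 ± 0.06 for row 11713, 1.81 ± 0.12 for row 10691, 2.04 ± 0.14 for row 7733 and 1.51 ± 0.07 for row 9594 (SE). For row 6326 DUX4 was the higher, at -0.55 ± 0.05 (SE). The falls against luciferase were small in 3 of them, at -0.13 ± 0.05 with DUX4 for row 5461, -0.20 ± 0.09 with DUX4 for row 9594 and -0.23 ± 0.05 with DUXC for row 6326 (SE). The largest was -0.91 ± 0.14 with DUX4 for row 10691 (SE).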

How the results depend on the processing

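The number of members depended most on the rule itself. It was 98 with a pseudocount of 1 CPM (89 of them among the 179), 467 with a ratio of at least 1.5 and 106 with a ratio of at least 2. Leaving out 1 luciferase or DUXC-ALT library gave 170 to 211 members, and CPM on TMM effective library sizes gave 144. No count of member calls in the 6 comparisons moved by over 1.5 times under DESeq2, RLE scaling, no filter, the replicate block or leaving out a library. With DUXC against DUX4, leaving out 1 library gave 63 to 67 higher and 48 to 52 lower. The 10 rows named for that comparison kept their direction and call under every alternative run on them. With the replicate number as a block, the counts for DUXC against DUX4 were 67 higher and 51 lower. Without the ceiling, an alternative added later, they were 75 and 69. Same-numbered libraries of different groups showed little common deviation, with correlations from -0.116 to 0.0311. Of 18, 7 correlated best with their own number. Between luciferase and DUXC-ALT every library did so, with correlations of 0.0053, 0.0079 and 0.0163. Correlations this weak cannot tell whether the numbers pair the samples. Members of few reads are limited by depth, and 45 had under 30 luciferase reads.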
